A study of Homo sapiens with 24 samples.

Results

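The 49 genes described here build the DNA replication fork and feed it. They were taken by gene name from a list of DNA replication genes, and all 49 were found among the 58302 genes of the deposited expression table. They were compared by 5 steps, which were origin licensing (8 genes), the replicative helicase (15 genes), the polymerases (10 genes), the sliding clamp with the factors of lagging strand synthesis (12 genes) and nucleotide supply (4 genes). All 49 had a mean of at least 1 FPKM (fragments per kilobase of exon, scaled to library depth) over the libraries and were tested among 12607 genes. The RNA came from A549, an established line of a human lung cancer. Its cells had received a lentivirus for overexpression of GPD1, the cytosolic glycerol-3-phosphate dehydrogenase, or a blank vector lentivirus as control, and grew in medium with 10 mM metformin or without it. Metformin is a biguanide used against diabetes that inhibits respiratory complex I. The 4 groups of 3 libraries each were GPD1 cells with metformin, untreated GPD1 cells, vector cells with metformin and untreated vector cells. The control cells thus carry a lentivirus too. The time in metformin, and whether a clone or a pool of transduced cells was used, are not stated in the sources used here. The remaining 12 of the 24 samples of the series, from the kidney cancer line 786-O, were not analysed here.

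Before S phase, the origin recognition complex (ORC), CDC6 and CDT1 load the ring of MCM2 to MCM7 onto DNA, and geminin (GMNN) binds CDT1 to keep an origin from being licensed again. The kinase CDC7 with its activator DBF4, together with MCM10, CDC45 and the GINS complex, turns that ring into the moving helicase. Polymerase alpha and primase begin the strands, polymerases delta and epsilon extend them on the clamp PCNA, which RFC loads, RPA covers unpaired DNA, and FEN1, DNA2 and LIG1 finish the Okazaki fragments. Ribonucleotide reductase, thymidylate synthase and thymidine kinase supply deoxynucleotides. Many of these genes are transcribed from late G1 into S phase under E2F factors, and their RNA is known as a mark of proliferating cells.

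Judged from the steps between low values, library depth was 13.3 to 18.0 M reads (or fragments), so a gene with 1 kb of exon gains 0.0556 to 0.0753 FPKM from 1 read. The thinnest member, POLE2, had a value worth 16.03 reads in 1 vector library with metformin, 48 of the 49 members were worth at least 20 reads in every library, and the median over members and libraries was 413. No replicate pair held the same values, and their log2 values correlated at 0.989 to 0.991 across genes. GPD1 averaged 13.5 ± 0.270 FPKM in GPD1 cells with metformin, against 0.0538 ± 0.0251 FPKM in vector cells with metformin, and 15.8 ± 0.855 FPKM in untreated GPD1 cells, against 0.0770 ± 0.0323 FPKM in untreated vector cells (SD, n = 3 each). The epithelial markers KRT7, KRT8 and KRT18 stood at 64.4 to 351 FPKM in all 12 libraries, while 5 of 11 lung markers (KRT19, NAPSA, SFTPB, SFTPC and NKX2-1) were below 1 FPKM throughout. Of 5 blood markers only CD14 reached 1 FPKM in any library, with summed levels of 8.002 to 8.74 FPKM in GPD1 cells with metformin, 5.98 to 10.8 FPKM in untreated GPD1 cells, 0.111 to 0.161 FPKM in vector cells with metformin and 0.273 to 0.797 FPKM in untreated vector cells, while CD3E and HBB were listed at 0 in all libraries. PTPRC, the leukocyte marker, was below 1 FPKM throughout. The summed lung markers were 1726 to 1928 FPKM in GPD1 cells with metformin, 2384 to 2480 FPKM in untreated GPD1 cells, 1251 to 1339 FPKM in vector cells with metformin and 1856 to 1899 FPKM in untreated vector cells. AKR1B10, at 751 to 1823 FPKM, made up most of each sum. It and KRT7 were lower with metformin in both backgrounds, while KRT8, KRT18, AKR1C1 and EPCAM were higher, so the sums do not speak for the list. Of the kidney markers 2 of 6, and of the fibroblast and endothelial markers 1 of 7, reached 1 FPKM in any library, with sums of at most 4.95 and 5.45 FPKM. Any part of these differences in the results below was not tested. Transcripts of the mitochondrial genome held 10.3% to 11.4% of all FPKM in GPD1 cells with metformin, against 30.2% to 32.3% in untreated GPD1 cells, and 13.7% to 14.9% in vector cells with metformin, against 32.9% to 33.2% in untreated vector cells. Because FPKM values share a total, the counts of called members are also given below with totals that leave those transcripts out. Whether the replicates came from separate cultures is not stated, and the p-values therefore speak of the spread among these libraries alone, which could be technical.

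With metformin, RNA of nearly all of the 49 members was lower, in GPD1 cells and in vector cells alike. Replication subunits outside the 49, given further below, were more mixed. In GPD1 cells 48 of 49 members (98.0%) fell and 1, the licensing factor CDT1, rose (limma, Benjamini-Hochberg adjusted p under 0.05), where 48.0% of all tested genes fell and 26.1% rose. In vector cells 48 of 49 members fell and CDT1 rose, where 43.3% of all tested genes fell and 31.3% rose. The log2 fold change, always on the log2(FPKM + 1) scale and therefore understated for weakly expressed genes, had a median of -1.11 over the members in GPD1 cells, against -0.20 over all tested genes, and of -1.15 in vector cells, against -0.10 over all tested genes. At least 1 log2 unit lower were 26 members in GPD1 cells, where 12.1% of all genes were, and 31 members in vector cells, where 11.4% of all genes were. The 3 libraries with metformin lay wholly below the 3 untreated ones for 48 members in GPD1 cells (49.6% of all genes) and for 48 in vector cells (44.2% of all genes). Only CDT1 lay wholly above in either background, as 27.5% of all genes did in GPD1 cells and 32.4% in vector cells. In RNA from whole cultures, fewer cells in S phase and less of these transcripts in each cell cannot be told apart. The 2 metformin comparisons use different libraries, while each comparison of GPD1 with vector cells below shares its libraries with them.

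**Figure D1:**
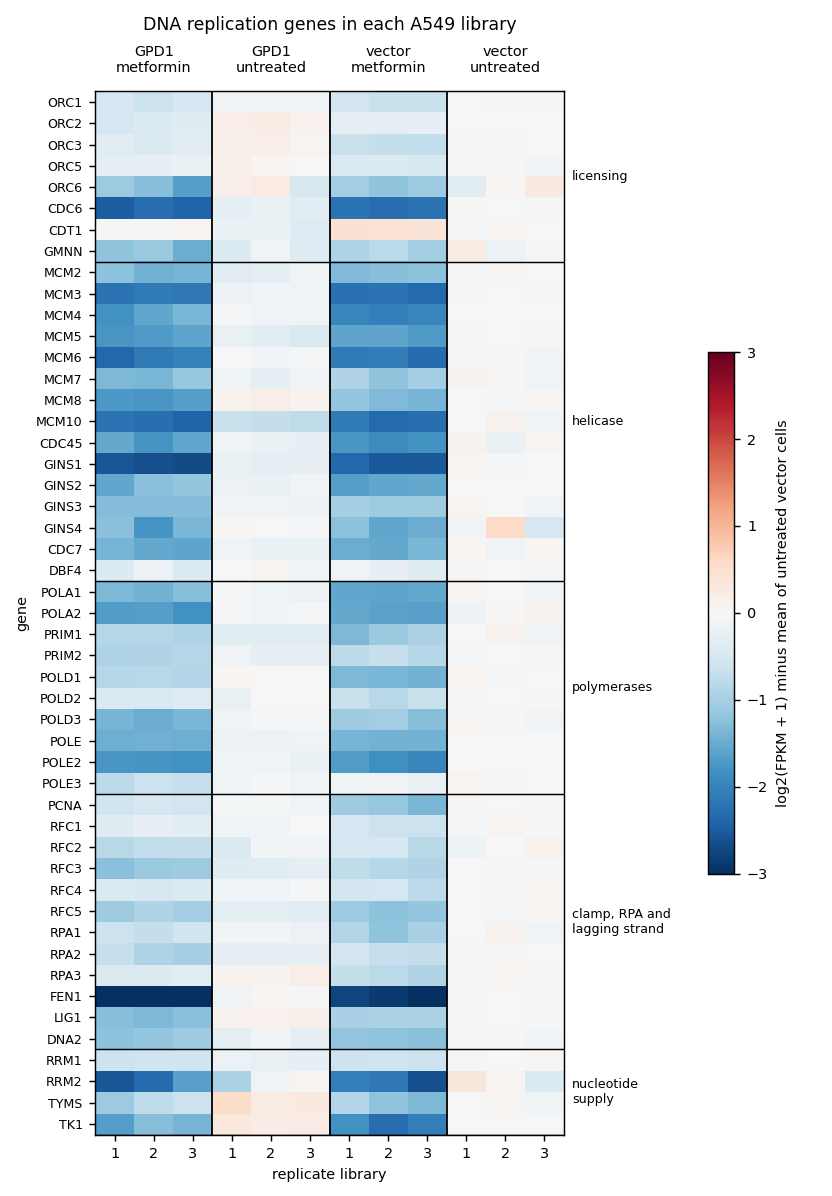
Level of each of the 49 genes in each of the 12 libraries, as log2(FPKM + 1) minus the mean of untreated vector cells (blue lower, red higher, colours end at 3 units, which FEN1 passes). The 6 libraries with metformin are blue for 48 genes, and CDT1 is the exception.

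How far the members fell depends on how the libraries are scaled, and so does the median change of all genes with metformin, even in its sign. That median was -0.20 in GPD1 cells and -0.10 in vector cells as deposited, 0.07 and 0.10 by median-ratio factors, 0.17 and 0.11 by upper-quartile factors, and -0.48 and -0.39 with totals without mitochondrial genes. Relative to it, the members' median stayed between -0.96 and -0.84 in GPD1 cells and between -1.07 and -1.02 in vector cells under all 4 scalings. The split of all genes was 26.1% higher and 48.0% lower in GPD1 cells as deposited, 39.8% and 33.5% with median-ratio factors, 46.7% and 28.2% with upper-quartile factors, and 13.8% and 64.4% without mitochondrial genes. In vector cells it was 31.3% higher and 43.3% lower as deposited, 42.0% and 32.7% with median-ratio factors, 42.4% and 32.2% with upper-quartile factors, and 19.3% and 58.8% without mitochondrial genes. Of the members, 41 were still called lower and 1 higher in GPD1 cells with median-ratio factors, 35 lower and 2 higher with upper-quartile factors, and 48 lower and 0 higher without mitochondrial genes. In vector cells 45 were called lower and 1 higher with either set of factors, and 48 lower and 0 higher without mitochondrial genes. The call held under every scaling, filter, pseudocount and left-out library tried for 35 of the 48 lower members in GPD1 cells and for 45 of 48 in vector cells, where DBF4, POLE3 and ORC2 were the exceptions.

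**Figure D2:**
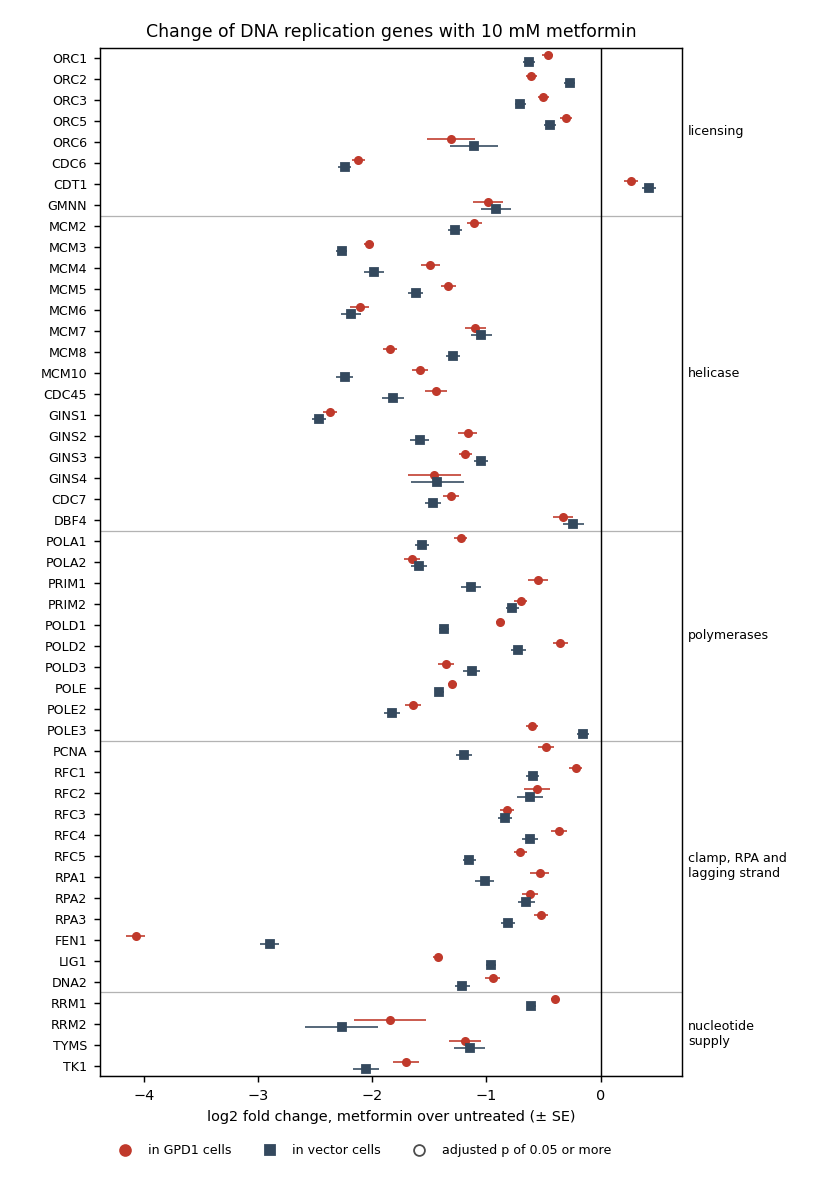
Log2 fold change with metformin for each gene in GPD1 cells (red circles) and vector cells (dark squares), grouped by step, with lines for the standard error and open symbols for an adjusted p of 0.05 or more. All symbols are filled, 48 genes lie left of 0 in each background, and FEN1 in GPD1 cells lies farthest left at -4.08. CDT1 lies right of 0, but its value in GPD1 cells is -0.08 with totals without mitochondrial genes, and ORC5, POLD2, RFC1, RFC4 and RRM1 in GPD1 cells and POLE3 in vector cells lie above 0 with upper-quartile factors.

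The promoters show what these genes share in sequence. RefSeq promoter windows (build GRCh38.p14, 250 bases before to 50 after the start) were at hand for 42 of the 49 members and not for MCM4, MCM5, GINS4, POLD3, RPA2, RPA3 and DNA2. An E2F core, searched on both strands as TTCCCGC or TTCGCGC or TTGCCGC or TTGGCGC, stood in 28 of 42 (66.7%), against 13.1% of all 27305 promoters and 21.9% of 8335 promoters of tested genes. By step the core stood in 4 of 8 licensing, 9 of 12 helicase, 5 of 9 polymerase, 8 of 9 clamp and 2 of 4 nucleotide supply promoters. Members with it had a median log2 fold change with metformin of -1.14 in GPD1 cells and -1.15 in vector cells, and the 14 without it -0.93 in GPD1 cells and -1.02 in vector cells. A CCAAT box (CCAAT) stood in 23 of 42 (54.8%), against 35.7% of all promoters and 37.0% of those of tested genes, and the CHR element (TTTGAA) in 2 of 42 (4.76%), DBF4 and RRM1, against 15.4% of all promoters and 9.08% of those of tested genes. Matches of the same motif overlapped in 7 pairs, among them a pair of CCAAT boxes in POLE and otherwise E2F cores. Matches of different motifs overlapped in 7 pairs. A match is a run of letters and not a shown site of binding. Windows of 6 genes are printed, with every match of the E2F core in capitals and the CCAAT boxes left in lower case, 5′ to 3′ on the strand of the gene. GINS1, CDC6, MCM6 and MCM3 were picked as genes that hold the core and fell farthest, by over 2 log2 units in both backgrounds as deposited. That these 4 hold the core was thus fixed by the choice. FEN1, picked as a member without the core, had the lowest log2 fold change in either background, and its window holds no match of the 3 motifs. CDT1, chosen after its values were seen, holds the core and was the member that rose. The windows follow RefSeq starts, which can lie away from the start of the gene locus given below. Those of FEN1 and CDT1 begin inside the loci, so bases before these loci were not searched.
GINS1, chr20:25407423-25407722, plus strand: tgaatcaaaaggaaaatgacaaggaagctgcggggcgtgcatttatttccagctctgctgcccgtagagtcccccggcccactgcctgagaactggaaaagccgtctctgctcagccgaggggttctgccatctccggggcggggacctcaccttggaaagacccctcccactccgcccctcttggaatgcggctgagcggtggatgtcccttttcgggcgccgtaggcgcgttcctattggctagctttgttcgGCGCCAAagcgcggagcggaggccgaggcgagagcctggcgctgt
CDC6, chr17:40287629-40287928, plus strand: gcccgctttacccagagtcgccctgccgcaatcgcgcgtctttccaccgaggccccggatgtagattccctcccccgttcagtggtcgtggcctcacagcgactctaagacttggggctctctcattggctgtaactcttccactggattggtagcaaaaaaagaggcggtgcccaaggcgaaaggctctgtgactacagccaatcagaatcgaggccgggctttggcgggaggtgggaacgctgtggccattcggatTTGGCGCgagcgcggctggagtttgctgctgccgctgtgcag
MCM6, chr2:135876394-135876693, minus strand: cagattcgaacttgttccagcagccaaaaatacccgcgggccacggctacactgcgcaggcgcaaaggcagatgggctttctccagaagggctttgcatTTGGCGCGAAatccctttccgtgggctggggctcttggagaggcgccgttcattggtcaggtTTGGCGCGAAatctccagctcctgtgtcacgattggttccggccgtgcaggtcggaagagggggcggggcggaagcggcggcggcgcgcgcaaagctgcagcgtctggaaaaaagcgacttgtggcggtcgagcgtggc
MCM3, chr6:52284693-52284992, minus strand: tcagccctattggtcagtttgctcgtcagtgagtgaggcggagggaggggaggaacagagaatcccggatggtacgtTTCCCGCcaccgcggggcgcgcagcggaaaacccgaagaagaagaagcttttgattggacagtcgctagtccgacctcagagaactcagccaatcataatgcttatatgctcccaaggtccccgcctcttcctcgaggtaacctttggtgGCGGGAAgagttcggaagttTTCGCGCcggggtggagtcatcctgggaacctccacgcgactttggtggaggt
FEN1, chr11:61792661-61792960, plus strand: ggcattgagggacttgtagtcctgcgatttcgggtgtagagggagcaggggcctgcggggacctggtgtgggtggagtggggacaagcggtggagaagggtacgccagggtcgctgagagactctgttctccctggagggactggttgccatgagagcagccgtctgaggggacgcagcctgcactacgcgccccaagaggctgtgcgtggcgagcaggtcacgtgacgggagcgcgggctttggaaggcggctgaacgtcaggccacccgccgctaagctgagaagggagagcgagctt
CDT1, chr16:88803539-88803838, plus strand: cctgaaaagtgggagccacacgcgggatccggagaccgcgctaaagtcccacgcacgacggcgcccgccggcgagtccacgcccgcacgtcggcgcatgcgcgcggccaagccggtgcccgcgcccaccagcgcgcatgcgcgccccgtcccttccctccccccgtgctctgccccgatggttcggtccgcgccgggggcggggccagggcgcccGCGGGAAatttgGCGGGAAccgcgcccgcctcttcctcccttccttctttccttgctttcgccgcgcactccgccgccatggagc
With the start base counted as 0, the core lies at 5 to 11 in GINS1 and at 8 to 14 in CDC6. MCM6 has overlapping pairs of cores at -151 to -142 and at -89 to -80. MCM3 has cores at -173 to -167, -23 to -17 and -3 to 3. CDT1 has cores at -35 to -29 and -23 to -17. The core thus stands in the window of the gene that rose as well as in those of 4 genes that fell far and were chosen for holding it. Of members without a core, RRM2 (-1.85 and -2.27 in GPD1 and vector cells) and TK1 (-1.71 and -2.05) fell far too. DBF4 (-0.33 and -0.24), also without it, fell by little, all as log2 fold changes.

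Among the licensing genes the factors that load the helicase were moved in opposite directions by metformin: CDC6 fell and CDT1 rose, although the rise of CDT1 depends on the scaling. The median log2 fold change of the 8 genes was -0.55 in GPD1 cells and -0.66 in vector cells. CDC6 (ENSG00000094804, chr17:40287633-40304657, plus strand), the ATPase that joins ORC to load the MCM ring, stood at 1.64, 2.002 and 1.799 FPKM in GPD1 cells with metformin, against 11.1, 11.8 and 10.8 FPKM in untreated GPD1 cells. For CDC6, vector cells had 2.18, 2.01 and 2.18 FPKM with metformin, against 14.2, 13.7 and 13.3 FPKM untreated. Its 6 metformin libraries lay together far below all untreated ones. CDC6 had a limma log2 fold change of -2.12 ± 0.06 SE, adjusted p = 4.43e-10, in GPD1 cells and -2.24 ± 0.06 SE, adjusted p = 1.78e-10, in vector cells. CDT1 (ENSG00000167513, chr16:88803213-88809258, plus strand), which brings the MCM ring to ORC and CDC6, stood at 18.1, 18.1 and 19.8 FPKM in GPD1 cells with metformin, against 16.1, 16.01 and 13.8 FPKM in untreated GPD1 cells. For CDT1, vector cells had 25.6, 25.6 and 24.4 FPKM with metformin, against 17.9, 19.4 and 18.4 FPKM untreated. The metformin libraries were above their own untreated ones in each background, and vector cells were above GPD1 cells of the same treatment. CDT1 had a log2 fold change of 0.27 ± 0.06 SE, adjusted p = 0.00213, in GPD1 cells and 0.42 ± 0.06 SE, adjusted p = 8.53e-05, in vector cells (limma), and with totals without mitochondrial genes it was -0.08 (adjusted p = 0.278) in GPD1 cells and 0.08 (adjusted p = 0.275) in vector cells. GMNN, the inhibitor of CDT1, averaged 2.65 ± 0.4898 FPKM in GPD1 cells with metformin, against 6.204 ± 0.878 FPKM in untreated GPD1 cells, and 3.65 ± 0.351 FPKM in vector cells with metformin, against 7.83 ± 1.23 FPKM in untreated vector cells (SD, n = 3 each).

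The subunits of ORC all fell, each by less than CDC6. ORC2 (ENSG00000115942, chr2:200908973-200963680, minus strand), a core subunit, stood at 4.43, 4.83 and 4.99 FPKM in GPD1 cells with metformin, against 7.84, 7.94 and 7.45 FPKM in untreated GPD1 cells. For ORC2, vector cells had 5.34, 5.39 and 5.46 FPKM with metformin, against 6.69, 6.82 and 6.65 FPKM untreated. Its metformin libraries were below the untreated ones, and the gap was wider in GPD1 cells. ORC2 had a log2 fold change of -0.61 ± 0.05 SE, adjusted p = 4.69e-07, in GPD1 cells and -0.27 ± 0.05 SE, adjusted p = 0.000252, in vector cells (limma), where it was no longer called with median-ratio (-0.05, adjusted p = 0.356) or upper-quartile factors (-0.05, adjusted p = 0.463). ORC3 (ENSG00000135336, chr6:87590067-87667453, plus strand), which pairs with ORC2 in the complex, stood at 5.26, 4.88 and 5.32 FPKM in GPD1 cells with metformin, against 7.82, 7.98 and 7.37 FPKM in untreated GPD1 cells. For ORC3, vector cells had 3.97, 3.84 and 3.75 FPKM with metformin, against 7.11, 6.62 and 6.93 FPKM untreated. Here the lowest libraries were those of vector cells with metformin. ORC3 had a log2 fold change of -0.50 ± 0.05 SE, adjusted p = 2.98e-06, in GPD1 cells and -0.70 ± 0.05 SE, adjusted p = 1.85e-07, in vector cells (limma), and with upper-quartile factors the call in GPD1 cells was lost (-0.09, adjusted p = 0.124). ORC1, the ATPase subunit that varies through the cell cycle, had a log2 fold change of -0.46 in GPD1 cells and -0.63 in vector cells. ORC5 fell by little, with a log2 fold change of -0.30 in GPD1 cells, which was 0.08 with upper-quartile factors, and -0.44 in vector cells. ORC6, the smallest subunit, fell farthest of the complex, with log2 fold changes of -1.31 and -1.11 in GPD1 and vector cells, on levels that varied more among replicates than those of the other subunits, with an SE of 0.21 against 0.05 for ORC1. Between the 5 ORC subunits among the members the highest mean level was 6.74 times the lowest in GPD1 cells with metformin, against 2.47 times in untreated GPD1 cells, and 4.91 times in vector cells with metformin, against 2.62 times in untreated vector cells.

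The helicase genes fell together and far. The median log2 fold change was -1.44 in GPD1 cells and -1.59 in vector cells, and 14 of the 15 genes were lower by at least 1 in either background, with DBF4 the exception. The 6 subunits of the ring are paralogs that stand in equal numbers in the complex. MCM2 stood at 8.18, 7.02 and 7.21 FPKM in GPD1 cells with metformin, against 16.3, 16.7 and 18.7 FPKM in untreated GPD1 cells, and at 7.69, 7.89 and 8.22 FPKM in vector cells with metformin, against 20.1, 21.2 and 20.6 FPKM in untreated vector cells. MCM3 stood at 4.65, 5.02 and 4.96 FPKM in GPD1 cells with metformin, against 22.4, 23.2 and 23.2 FPKM in untreated GPD1 cells, and at 4.54, 4.65 and 4.19 FPKM in vector cells with metformin, against 26.1, 25.2 and 24.6 FPKM in untreated vector cells. MCM4 stood at 3.99, 4.900 and 5.72 FPKM in GPD1 cells with metformin, against 15.7, 15.4 and 15.02 FPKM in untreated GPD1 cells, and at 3.53, 3.21 and 3.48 FPKM in vector cells with metformin, against 16.4, 16.4 and 16.7 FPKM in untreated vector cells. For these subunits no metformin library reached the lowest untreated one, and MCM4 was lowest in vector cells with metformin. MCM5 stood at 4.68, 4.91 and 5.35 FPKM in GPD1 cells with metformin, against 15.5, 13.97 and 12.9 FPKM in untreated GPD1 cells, and at 5.35, 5.42 and 4.88 FPKM in vector cells with metformin, against 17.7, 18.1 and 18.4 FPKM in untreated vector cells. MCM6 (ENSG00000076003, chr2:135839626-135876426, minus strand) stood at 6.39, 7.79 and 8.37 FPKM in GPD1 cells with metformin, against 36.6, 35.1 and 35.2 FPKM in untreated GPD1 cells, and at 7.67, 7.799 and 6.62 FPKM in vector cells with metformin, against 38.1, 37.8 and 35.01 FPKM in untreated vector cells. MCM7 stood at 14.5, 14.2 and 16.9 FPKM in GPD1 cells with metformin, against 34.5, 30.99 and 35.4 FPKM in untreated GPD1 cells, and at 19.8, 16.03 and 18.3 FPKM in vector cells with metformin, against 40.8, 39.2 and 34.7 FPKM in untreated vector cells. The metformin libraries again lay wholly below the untreated ones. The log2 fold changes in GPD1 cells, in that order, were -1.11, -2.03, -1.49, -1.33, -2.11 and -1.10, with adjusted p between 2.31e-10 and 1.23e-06 (limma). In vector cells they were -1.28, -2.27, -1.99, -1.62, -2.19 and -1.04. MCM3 and MCM6 thus fell by about 1 log2 unit more than MCM2 and MCM7 in the same libraries. The highest mean level among the 6 was 3.12 times the lowest in GPD1 cells with metformin, against 2.53 times in untreated GPD1 cells, and 5.30 times in vector cells with metformin, against 2.32 times in untreated vector cells.

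GINS1 (ENSG00000101003, chr20:25407727-25452628, plus strand), a subunit of the GINS complex that rides with CDC45 and the MCM ring, stood at 2.898, 2.74 and 2.58 FPKM in GPD1 cells with metformin, against 18.8, 17.8 and 18.4 FPKM in untreated GPD1 cells. For GINS1, vector cells had 3.54, 3.02 and 3.002 FPKM with metformin, against 23.3, 21.1 and 21.97 FPKM untreated. Its mean level was 6.697-fold lower with metformin in GPD1 cells and 6.94-fold lower in vector cells. On the log2(FPKM + 1) scale it had the lowest log2 fold change after FEN1 in GPD1 cells (-2.37 ± 0.06 SE, adjusted p = 3.31e-10) and in vector cells (-2.47 ± 0.06 SE, adjusted p = 1.49e-10; limma). By mean level MCM10 fell farther, 7.08-fold in GPD1 cells and 11.6-fold in vector cells, and so did POLE2 in both backgrounds. With a pseudocount of 0.1 the log2 fold changes in vector cells were -3.33 for MCM10, -3.16 for FEN1, -2.89 for POLE2 and -2.76 for GINS1. GINS2, GINS3 and GINS4, the other subunits, had log2 fold changes of -1.16, -1.18 and -1.46 in GPD1 cells and -1.59, -1.05 and -1.43 in vector cells. MCM10 (ENSG00000065328, chr10:13161554-13211104, plus strand), which helps the ring open and binds polymerase alpha, stood at 0.559, 0.517 and 0.383 FPKM in GPD1 cells with metformin, against 3.59, 3.41 and 3.32 FPKM in untreated GPD1 cells. For MCM10, vector cells had 0.664, 0.454 and 0.507 FPKM with metformin, against 6.19, 6.78 and 5.901 FPKM untreated. Untreated vector cells stood above untreated GPD1 cells, and all metformin libraries lay below 1 FPKM. MCM10 had a log2 fold change of -1.58 ± 0.07 SE, adjusted p = 1.22e-08, in GPD1 cells and -2.24 ± 0.07 SE, adjusted p = 7.51e-10, in vector cells (limma). MCM8 (ENSG00000125885, chr20:5950652-5998977, plus strand), a relative of the ring subunits that works with MCM9 in recombination repair, stood at 3.48, 3.37 and 3.65 FPKM in GPD1 cells with metformin, against 14.9, 15.8 and 14.9 FPKM in untreated GPD1 cells. For MCM8, vector cells had 5.63, 4.87 and 4.61 FPKM with metformin, against 13.5, 13.4 and 14.3 FPKM untreated. Its lowest libraries were GPD1 cells with metformin, although untreated GPD1 cells stood above untreated vector cells. MCM8 had a log2 fold change of -1.85 ± 0.06 SE, adjusted p = 1.47e-09, in GPD1 cells and -1.29 ± 0.06 SE, adjusted p = 1.22e-08, in vector cells (limma). CDC45 had log2 fold changes of -1.44 and -1.82 in GPD1 and vector cells, and the kinase CDC7 of -1.31 and -1.47. DBF4, which activates CDC7, averaged 0.784 ± 0.176 FPKM in GPD1 cells with metformin, against 1.24 ± 0.133 FPKM in untreated GPD1 cells (SD, n = 3 each). Its log2 fold change was -0.33 in GPD1 cells and -0.24 in vector cells, and the call in vector cells (adjusted p = 0.0339, limma) was lost without replicate 2 or 3 of vector cells with metformin (-0.23 and -0.17) and without replicate 1 or 2 of untreated vector cells (-0.23 and -0.23). The processed pseudogene DBF4P1 had a mean of 1.18 FPKM, close to DBF4 itself, so reads could have been split between them.

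All 10 polymerase genes fell in either background as deposited, most of them by about 1 log2 unit or more, and the smallest falls were those of POLD2 and PRIM1 in GPD1 cells and of POLE3 and POLD2 in vector cells. The median log2 fold change was -1.05 in GPD1 cells and -1.25 in vector cells, with 5 and 7 genes lower by at least 1. POLA2 (ENSG00000014138, chr11:65261762-65305589, plus strand), the regulatory subunit of polymerase alpha, stood at 1.45, 1.48 and 1.23 FPKM in GPD1 cells with metformin, against 6.602, 6.34 and 6.59 FPKM in untreated GPD1 cells, and at 1.68, 1.57 and 1.51 FPKM in vector cells with metformin, against 6.01, 7.003 and 7.42 FPKM in untreated vector cells. POLE2 (ENSG00000100479, chr14:49643555-49688422, minus strand), the B subunit of polymerase epsilon, stood at 0.586, 0.567 and 0.526 FPKM in GPD1 cells with metformin, against 3.87, 4.08 and 3.69 FPKM in untreated GPD1 cells, and at 0.677, 0.488 and 0.373 FPKM in vector cells with metformin, against 4.36, 4.298 and 4.42 FPKM in untreated vector cells. Each metformin library was below every untreated one, and POLE2 fell under 1 FPKM. POLA2 had a log2 fold change of -1.65 ± 0.07 SE, adjusted p = 7.75e-09, in GPD1 cells and -1.59 ± 0.07 SE, adjusted p = 7.42e-09, in vector cells (limma). That of POLE2 was -1.64 ± 0.07 SE, adjusted p = 7.86e-09, in GPD1 cells and -1.83 ± 0.07 SE, adjusted p = 2.6e-09, in vector cells (limma). POLE3 (ENSG00000148229, chr9:113407235-113410672, minus strand), a histone-fold subunit of the same enzyme that also works in chromatin remodelling, stood at 17.8, 19.5 and 19.1 FPKM in GPD1 cells with metformin, against 28.4, 30.02 and 28.6 FPKM in untreated GPD1 cells. For POLE3, vector cells had 28.4, 28.9 and 26.4 FPKM with metformin, against 32.99, 29.8 and 30.9 FPKM untreated. It stayed far above POLE2, and in vector cells the metformin and untreated libraries lay close together. POLE3 had a log2 fold change of -0.60 ± 0.05 SE, adjusted p = 1.61e-06, in GPD1 cells and -0.16 ± 0.05 SE, adjusted p = 0.0197, in vector cells (limma), where it was 0.09 with median-ratio and 0.10 with upper-quartile factors and was not called without replicate 3 of vector cells with metformin (-0.12, adjusted p = 0.0755) or replicate 1 of untreated vector cells (-0.12, adjusted p = 0.0822). Among the 3 measured subunits of polymerase epsilon the highest mean level was 33.6 times the lowest in GPD1 cells with metformin, against 7.49 times in untreated GPD1 cells, and 54.4 times in vector cells with metformin, against 7.17 times in untreated vector cells. The catalytic subunit POLE had log2 fold changes of -1.30 and -1.41 in GPD1 and vector cells.

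POLD1 (ENSG00000062822, chr19:50384204-50418018, plus strand), the catalytic subunit of polymerase delta, stood at 9.71, 9.88 and 9.53 FPKM in GPD1 cells with metformin, against 19.3, 18.3 and 18.4 FPKM in untreated GPD1 cells, and at 6.65, 6.52 and 6.28 FPKM in vector cells with metformin, against 19.2, 17.7 and 18.3 FPKM in untreated vector cells. PRIM1 (ENSG00000198056, chr12:56731596-56752373, minus strand), the catalytic subunit of primase, stood at 4.79, 4.85 and 4.58 FPKM in GPD1 cells with metformin, against 7.34, 7.41 and 7.43 FPKM in untreated GPD1 cells, and at 3.15, 3.91 and 4.44 FPKM in vector cells with metformin, against 9.56, 10.3 and 8.797 FPKM in untreated vector cells. Both were lower in vector cells with metformin than in GPD1 cells with metformin. POLD1 had a log2 fold change of -0.88 ± 0.04 SE, adjusted p = 1.67e-08, in GPD1 cells and -1.37 ± 0.04 SE, adjusted p = 5.25e-10, in vector cells (limma). That of PRIM1 was -0.55 ± 0.09 SE, adjusted p = 0.000174, in GPD1 cells and -1.13 ± 0.09 SE, adjusted p = 5.03e-07, in vector cells (limma), and in GPD1 cells it was not called with upper-quartile factors (-0.14, adjusted p = 0.215). The remaining members were POLA1, the catalytic subunit of polymerase alpha (-1.22 and -1.56 in GPD1 and vector cells), PRIM2, the large primase subunit (-0.70 and -0.77), and the accessory subunits POLD3 (-1.36 and -1.13) and POLD2 (-0.35 and -0.72), all as log2 fold changes, where POLD2 in GPD1 cells was 0.08 with upper-quartile factors. POLA2 and PRIM1 share 35.1% and 14.9% of their exon bases with other genes of the same strand in GENCODE release 29. Those genes have no value here, and whether reads there were split was not tested.

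The clamp and lagging strand genes ranged from FEN1, with the lowest log2 fold change of the 49 on the log2(FPKM + 1) scale, to several that fell by little, although by mean level MCM10 fell farther than FEN1 in vector cells. The median log2 fold change was -0.59 in GPD1 cells and -0.90 in vector cells, with 2 and 5 of 12 genes lower by at least 1. FEN1 (ENSG00000168496, chr11:61792637-61797244, plus strand), the nuclease that cuts the flap off each Okazaki fragment, stood at 0.945, 0.978 and 1.28 FPKM in GPD1 cells with metformin, against 32.3, 35.7 and 33.4 FPKM in untreated GPD1 cells. For FEN1, vector cells had 4.27, 3.88 and 3.296 FPKM with metformin, against 35.5, 34.9 and 34.1 FPKM untreated. The 3 groups of levels were clearly apart, with GPD1 cells with metformin lowest, vector cells with metformin next and all untreated libraries high. The mean level of FEN1 was 31.7-fold lower with metformin in GPD1 cells and 9.13-fold lower in vector cells. Its log2 fold change was -4.08 ± 0.08 SE, adjusted p = 1.45e-10, in GPD1 cells and -2.90 ± 0.08 SE, adjusted p = 3.11e-10, in vector cells (limma), and between -4.34 and -2.66 under all 3 other scalings in both backgrounds. FEN1 shares 166 exon bases with TMEM258 on the opposite strand, whose levels were 18.7 to 20.5 FPKM in GPD1 cells with metformin, 8.97 to 9.97 FPKM in untreated GPD1 cells, 16.3 to 17.6 FPKM in vector cells with metformin and 9.13 to 10.3 FPKM in untreated vector cells, the other way from FEN1. LIG1 (ENSG00000105486, chr19:48115445-48170603, minus strand), the ligase that seals the fragments, stood at 4.21, 3.94 and 4.31 FPKM in GPD1 cells with metformin, against 12.6, 12.8 and 13.1 FPKM in untreated GPD1 cells. For LIG1, vector cells had 5.39, 5.55 and 5.53 FPKM with metformin, against 11.9, 11.6 and 11.4 FPKM untreated. As with FEN1, GPD1 cells with metformin were lowest. LIG1 had a log2 fold change of -1.43 ± 0.04 SE, adjusted p = 6.23e-10, in GPD1 cells and -0.96 ± 0.04 SE, adjusted p = 5.07e-09, in vector cells (limma). DNA2, a nuclease of long flaps, had log2 fold changes of -0.95 and -1.21 in GPD1 and vector cells.

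PCNA (ENSG00000132646, chr20:5114953-5126626, minus strand), the clamp itself and the most abundant of the 49 genes per exon length in every group, stood at 159, 169 and 163 FPKM in GPD1 cells with metformin, against 232, 231 and 223 FPKM in untreated GPD1 cells. For PCNA, vector cells had 114, 109.9 and 92.5 FPKM with metformin, against 247, 245 and 234 FPKM untreated. Metformin libraries were below untreated ones, by much more in vector cells. The mean level of PCNA was 1.396-fold lower with metformin in GPD1 cells and 2.29-fold lower in vector cells. Its log2 fold change was -0.48 ± 0.07 SE, adjusted p = 7.55e-05, in GPD1 cells and -1.20 ± 0.07 SE, adjusted p = 4.74e-08, in vector cells (limma), and the call in GPD1 cells was lost with median-ratio (-0.15, adjusted p = 0.0919) and upper-quartile factors (-0.0032, adjusted p = 0.97). RFC3 (ENSG00000133119, chr13:33818049-33966558, plus strand), a subunit of the clamp loader, stood at 6.41, 7.202 and 7.48 FPKM in GPD1 cells with metformin, against 12.8, 12.9 and 13.7 FPKM in untreated GPD1 cells. For RFC3, vector cells had 9.49, 8.69 and 8.51 FPKM with metformin, against 16.8, 17.1 and 16.1 FPKM untreated. GPD1 cells were below vector cells with metformin and without it. RFC3 had a log2 fold change of -0.82 ± 0.06 SE, adjusted p = 3.93e-07, in GPD1 cells and -0.84 ± 0.06 SE, adjusted p = 2.88e-07, in vector cells (limma). The other loader subunits RFC1, RFC2, RFC4 and RFC5 had log2 fold changes of -0.22, -0.56, -0.37 and -0.70 in GPD1 cells and of -0.59, -0.62, -0.62 and -1.15 in vector cells, where with upper-quartile factors RFC1 turned to 0.20 (adjusted p = 0.00563) and RFC4 to 0.03 in GPD1 cells, and RFC1 to 0.08 with median-ratio factors. The RPA subunits RPA1, RPA2 and RPA3 had -0.53, -0.62 and -0.52 in GPD1 cells and -1.02, -0.65 and -0.81 in vector cells, on the same scale. The highest mean level among the 5 RFC genes was 1.72 times the lowest in GPD1 cells with metformin, against 2.27 times in untreated GPD1 cells, and 2.39 times in vector cells with metformin, against 2.67 times in untreated vector cells. Among the 3 RPA genes it was 2.35 times in GPD1 cells with metformin, against 2.27 times in untreated GPD1 cells, and 2.53 times in vector cells with metformin, against 2.75 times in untreated vector cells.

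In nucleotide supply, 3 of the 4 genes were lower by at least 1 log2 unit in either background, and RRM1 fell by less. RRM2 (ENSG00000171848, chr2:10120698-10131419, plus strand), the small subunit of ribonucleotide reductase that is made in S phase, stood at 1.65, 2.13 and 4.04 FPKM in GPD1 cells with metformin, against 7.11, 13.5 and 15.6 FPKM in untreated GPD1 cells. For RRM2, vector cells had 2.79, 2.54 and 1.52 FPKM with metformin, against 18.6, 15.4 and 10.8 FPKM untreated. The metformin libraries were all below the untreated ones, but the replicates of a group differed more than for most members. RRM1 (ENSG00000167325, chr11:4094707-4138876, plus strand), the large subunit, stood at 15.4, 15.5 and 15.5 FPKM in GPD1 cells with metformin, against 21.4, 20.5 and 20.3 FPKM in untreated GPD1 cells. For RRM1, vector cells had 15.4, 15.7 and 15.4 FPKM with metformin, against 23.3, 24.4 and 24.7 FPKM untreated. Here the groups were close, with the untreated vector cells highest. RRM2 had a log2 fold change of -1.85 ± 0.32 SE, adjusted p = 0.000302, in GPD1 cells and -2.27 ± 0.32 SE, adjusted p = 6.06e-05, in vector cells (limma). That of RRM1 was -0.40 ± 0.04 SE, adjusted p = 2.32e-06, in GPD1 cells, turning to 0.05 with upper-quartile factors, and -0.61 ± 0.04 SE, adjusted p = 7.24e-08, in vector cells (limma). The mean level of RRM1 was 5.94 times that of RRM2 in GPD1 cells with metformin, against 1.72 times in untreated GPD1 cells, and 6.79 times in vector cells with metformin, against 1.62 times in untreated vector cells. RRM2 shares 20.2% of its exon bases with AC007240.1 on the same strand, whose levels varied from 0.418 to 31.6 FPKM among the 12 libraries. TK1 (ENSG00000167900, chr17:78174075-78187233, minus strand), the thymidine kinase of dividing cells, stood at 14.4, 18.7 and 17.2 FPKM in GPD1 cells with metformin, against 59.3, 55.03 and 55.9 FPKM in untreated GPD1 cells. For TK1, vector cells had 12.8, 8.96 and 10.4 FPKM with metformin, against 47.4, 47.5 and 46.7 FPKM untreated. The metformin libraries lay far below the untreated ones, in which only PCNA had a higher mean FPKM among the members. TK1 had a log2 fold change of -1.71 ± 0.11 SE, adjusted p = 1.61e-07, in GPD1 cells and -2.05 ± 0.11 SE, adjusted p = 3.23e-08, in vector cells (limma). TYMS, which makes thymidylate, had log2 fold changes of -1.19 and -1.15 in GPD1 and vector cells, and shares 39.1% of its exon bases with ENOSF1 on the opposite strand.

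Whether GPD1 changed the response to metformin was asked with the interaction, the log2 fold change with metformin in GPD1 cells minus that in vector cells. It was above 0 for 18 members, where it was so for 19.1% of all tested genes, and below 0 for 5 members, where it was so for 26.8%, at an adjusted p under 0.05 (limma). The other 26 members were not called. Above 0, that is with a smaller fall in GPD1 cells, were 1 licensing gene (ORC3), 6 helicase genes (MCM3, MCM4, MCM5, MCM10, CDC45 and GINS2), 4 polymerase genes (POLA1, PRIM1, POLD1 and POLD2), 6 clamp genes (PCNA, RFC1, RFC5, RPA1, RPA3 and DNA2) and RRM1. Below 0, that is with a larger fall in GPD1 cells, were ORC2, MCM8, POLE3, FEN1 and LIG1. The members' median interaction was 0.16, against -0.04 over all tested genes. By median-ratio factors 22 members were above and 5 below 0, by upper-quartile factors 28 and 4, and without mitochondrial genes 16 and 5. Over all genes, in that order, 23.3% were above and 24.1% below 0, 31.6% and 19.7%, and 18.2% and 26.2%.

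The clamp and its nuclease moved apart. PCNA had the largest interaction above 0 (0.72 ± 0.10 SE, adjusted p = 0.000163), followed by MCM10 (0.66 ± 0.10 SE, adjusted p = 0.000415) and PRIM1 (0.59 ± 0.12 SE, adjusted p = 0.00283; limma). FEN1 had the largest below 0 (-1.18 ± 0.11 SE, adjusted p = 1.89e-05) and was the only member beyond -1, as 5.68% of all genes were. MCM8 (-0.55 ± 0.09 SE, adjusted p = 0.000454), LIG1 (-0.47 ± 0.06 SE, adjusted p = 8.72e-05) and POLE3 (-0.45 ± 0.07 SE, adjusted p = 0.000689) came next below 0 (limma). These 4 and 14 of the 18 above 0 (MCM3, MCM4, MCM10, GINS2, POLA1, PRIM1, POLD1, POLD2, PCNA, RFC1, RFC5, RPA1, RPA3 and RRM1) were called under every scaling, filter, pseudocount and left-out library tried, while RPA3 was not called with the transcript length trend removed (0.23, adjusted p = 0.0539). Of the 12 omissions, CDC45, DNA2 and ORC3 were not called in 8 each and MCM5 in 6, with an adjusted p of at most 0.0891. By the libraries printed above, the interaction of MCM10 came with a gap between the untreated groups, whereas those of PCNA, POLD1 and FEN1 came with a gap between the metformin groups. That of LIG1 came with a gap in both, GPD1 cells being lower than vector cells with metformin (-0.33) and higher without it (0.13, adjusted p = 0.0397, limma). ORC2 and ORC3, partners in ORC, had interactions of opposite sign (-0.33 and 0.20), and so had POLE3 (-0.45) and POLD1 (0.50).

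**Figure D3:**
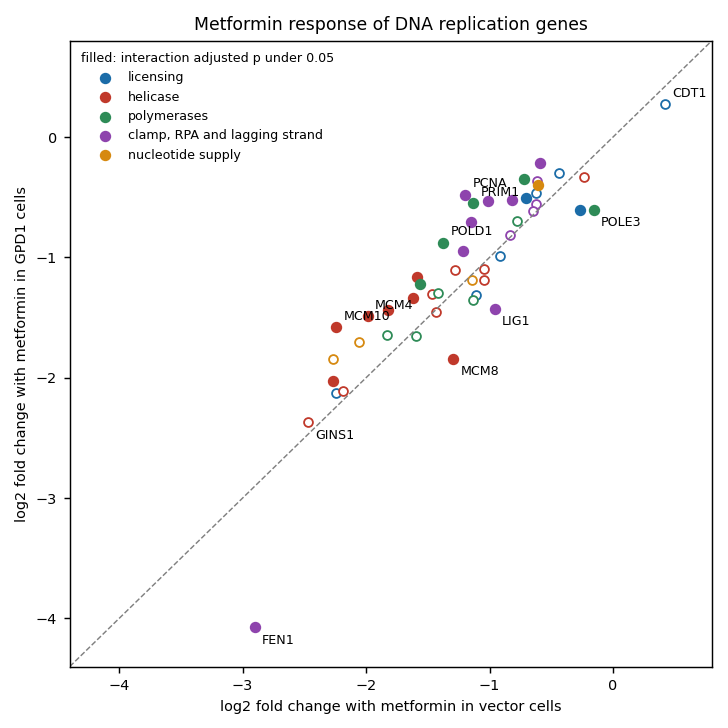
Log2 fold change with metformin in GPD1 cells (vertical) against that in vector cells (horizontal) for the 49 genes, coloured by step and filled where the interaction had an adjusted p under 0.05. FEN1 (-4.08 and -2.90), MCM8 (-1.85 and -1.29) and LIG1 (-1.43 and -0.96) lie below the line of equal change, and PCNA (-0.48 and -1.20) and MCM10 (-1.58 and -2.24) lie above it.

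**Figure D4:**
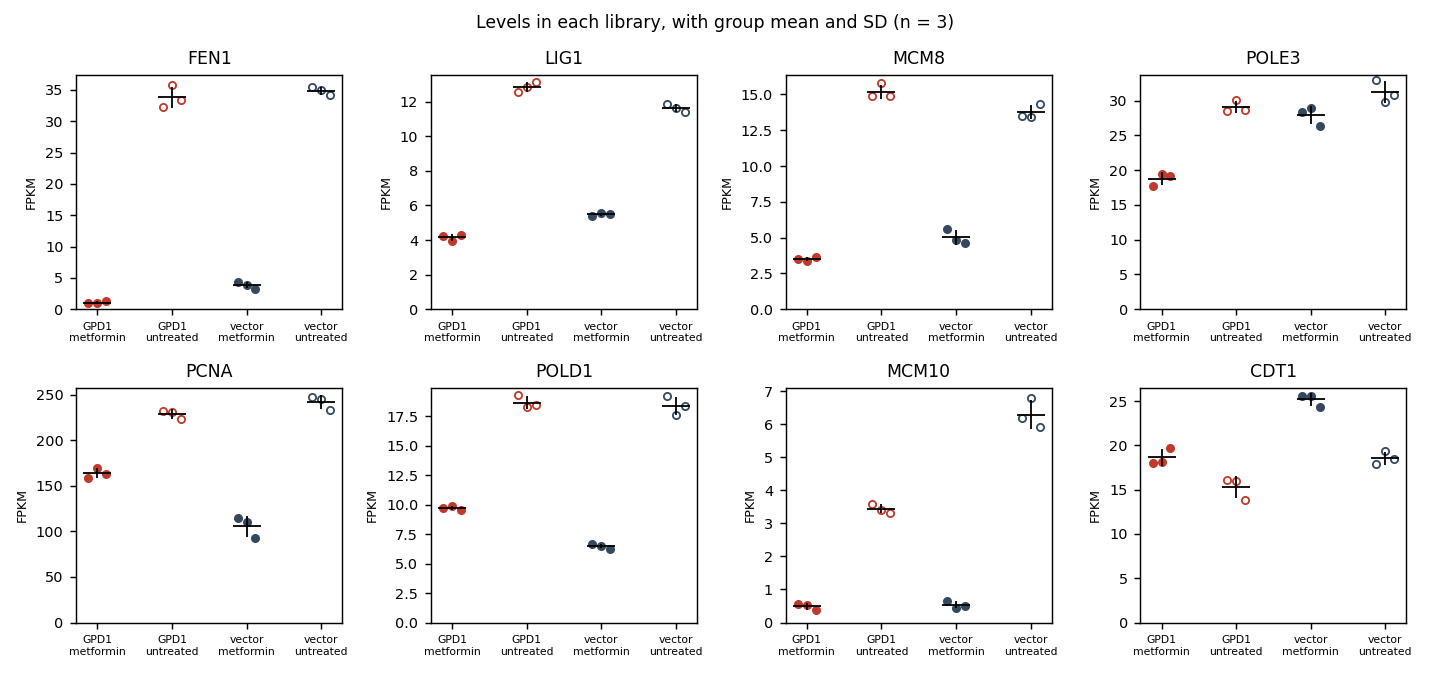
FPKM of FEN1, LIG1, MCM8, POLE3, PCNA, POLD1, MCM10 and CDT1 in each library, with the mean and SD of each group (n = 3). FEN1 with metformin lies at 0.945, 0.978 and 1.28 FPKM in GPD1 cells, below all vector libraries with metformin (4.27, 3.88 and 3.296 FPKM), while PCNA with metformin is higher in GPD1 cells than in vector cells.

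Under metformin, GPD1 cells and vector cells differed in 27 of the 49 members, in both directions about evenly as deposited. As deposited, the shares of members called were near or below those of all tested genes. GPD1 cells were higher for 14 members (28.6%), where 25.0% of all tested genes were, and lower for 13 (26.5%), where 35.0% of all tested genes were (limma, adjusted p under 0.05). The median log2 fold change of GPD1 over vector was -0.03 over the members and -0.05 over all genes. By median-ratio factors 19 members were higher and 8 lower, by upper-quartile factors 23 and 6, and without mitochondrial genes 12 and 15. In that order, all genes were 31.3% higher and 30.6% lower, 40.4% and 24.5%, and 21.5% and 36.7%. Only FEN1 was lower by at least 1, as 6.01% of all genes were. Its log2 fold change was -1.22 ± 0.08 SE, adjusted p = 3.94e-07 (limma), from the values given with the clamp genes. Next below were POLE3 (-0.55), MCM8 (-0.42), CDT1 (-0.42), GMNN (-0.36), LIG1 (-0.33), RFC3 (-0.30), POLD3 (-0.29), GINS3 (-0.25), RPA2 (-0.21), and GINS1, ORC2 and CDC6 (-0.16, -0.16 and -0.15), which were 0.02, 0.05 and 0.01 with upper-quartile factors. The highest was PCNA (0.63 ± 0.07 SE, adjusted p = 1.49e-05), followed by TK1 (0.61 ± 0.11 SE, adjusted p = 0.000748) and POLD1 (0.52 ± 0.04 SE, adjusted p = 1.79e-06; limma). RPA3 (0.42), MCM4 (0.40), RPA1 (0.36), ORC3 (0.34), POLD2 (0.30), RFC1 (0.29), PRIM1 (0.26), GINS2 (0.25), POLA1 (0.22), ORC5 (0.20) and RFC5 (0.15) were also higher, all as log2 fold changes. Calls held in every alternative except the threshold on fold size for 11 of the 14 higher and 6 of the 13 lower members (CDT1, MCM8, GINS3, POLE3, FEN1 and LIG1). Of the 12 omissions of a library, CDC6 and RFC5 were not called in 6 each (-0.15 to -0.11 and 0.11 to 0.17, adjusted p up to 0.147), GINS1 in 5 (adjusted p up to 0.138), and GINS2, GMNN, PRIM1 and RPA2 in 3 each (adjusted p up to 0.131). Replicate 1 of vector cells with metformin was among these for CDC6, GINS1, GINS2, GMNN, PRIM1 and RPA2, and replicate 3 of GPD1 cells with metformin for CDC6, GINS1, GINS2, GMNN, RFC5 and RPA2. Without replicate 1 of vector cells with metformin, PRIM1 was at 0.15 (adjusted p = 0.0778) and GINS1 at -0.10 (adjusted p = 0.138).

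**Figure D5:**
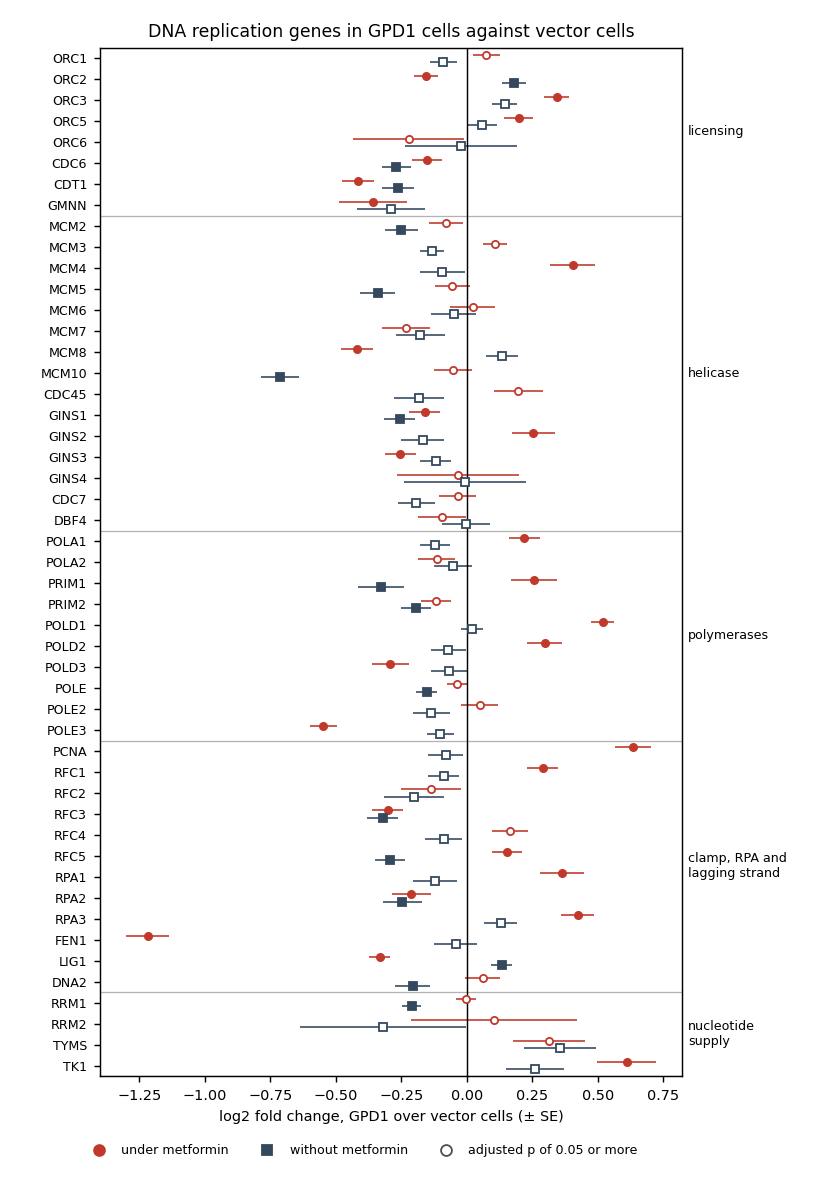
Log2 fold change of GPD1 over vector cells for each gene with metformin (red circles) and without it (dark squares), grouped by step, with lines for the standard error and open symbols for an adjusted p of 0.05 or more. With metformin the genes spread to both sides, from FEN1 at -1.22 to PCNA at 0.63, and GINS1, ORC2 and CDC6, left of 0 here, lie right of it with upper-quartile factors. Without metformin all lie within 1 unit of 0, and MCM10 at -0.71 is lowest.

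Without metformin, the difference between GPD1 and vector cells was small and mostly downward. GPD1 cells were lower for 14 members (28.6%), where 11.3% of all tested genes were, and higher for 2, ORC2 and LIG1, where 9.99% of all tested genes were (limma, adjusted p under 0.05). No member changed by 1 log2 unit. MCM10 had the largest difference, a log2 fold change of -0.71 ± 0.07 SE, adjusted p = 5.77e-05 (limma), and its untreated GPD1 libraries lay wholly below the untreated vector ones. Of the MCM ring, MCM5 (-0.34) and MCM2 (-0.25) were lower. The others were PRIM1 (-0.33), RFC3 (-0.32), RFC5 (-0.29), CDC6 (-0.27), CDT1 (-0.26), GINS1 (-0.26), RPA2 (-0.25), RRM1 (-0.21), DNA2 (-0.21), PRIM2 (-0.19) and POLE (-0.15), as log2 fold changes. ORC2 (0.18) and LIG1 (0.13) were higher by little. The median log2 fold change was -0.12 over the members and -0.01 over all genes. The lower count was 9 without replicate 1 or replicate 2 of untreated GPD1 cells and without replicate 1 or replicate 2 of untreated vector cells. The higher count was 0 without replicate 1 or 2 of untreated GPD1 cells or replicate 1 or 3 of untreated vector cells, and 1 without replicate 1 of GPD1 cells with metformin, replicate 3 of untreated GPD1 cells, replicate 2 of vector cells with metformin or replicate 2 of untreated vector cells. CDC6, CDT1, MCM5, MCM10, RFC3, RFC5 and RRM1 were called lower in every alternative except the threshold on fold size. Of the 12 omissions, DNA2 was not called in 9, LIG1 in 8, RPA2 in 7, PRIM2 in 6, PRIM1 in 5, ORC2 and POLE in 4 each, MCM2 in 3 and GINS1 in 1, with an adjusted p of at most 0.153. Without mitochondrial genes 0 members were higher and 16 lower, where 8.57% of all genes were higher and 15.3% lower.

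Genes around the 49 were taken from 4 further lists, to be read against the shares of all tested genes. With metformin these were 26.1% higher and 48.0% lower in GPD1 cells and 31.3% higher and 43.3% lower in vector cells. For GPD1 over vector cells they were 25.0% and 35.0% under metformin and 9.99% and 11.3% without it, and for the interaction 19.1% above and 26.8% below 0. Of the firing and fork accessory factors, 18 of 19 tested genes fell with metformin in GPD1 cells and 17 of 19 in vector cells, with 1 higher in each. UHRF1, which guides maintenance methylation to new DNA, had log2 fold changes of -2.16 in GPD1 and -2.62 in vector cells. ASF1B, a histone chaperone of the fork, had -1.87 and -2.64, and its interaction was 0.77 ± 0.09 SE, adjusted p = 6.04e-05 (limma). TOP2A, the topoisomerase that unlinks sister DNA, had the largest interaction of that list (0.97 ± 0.06 SE, adjusted p = 1.48e-06; limma). TOP1, named after its values were seen, was the higher gene (0.40 and 0.21), although with totals without mitochondrial genes it was at 0.04 in GPD1 and -0.14 in vector cells. Under metformin 8 of the 19 were higher and 1 lower in GPD1 than in vector cells, without metformin 0 were higher and 6 lower, and the interaction was above 0 for 11 and below 0 for 1. At an unadjusted p under 0.05, 0 were higher and 8 lower without metformin. With upper-quartile factors 12 of 18 were higher and 0 lower under metformin, where 40.4% of all genes were higher and 24.5% lower.

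Of the 13 other nucleotide enzymes, 9 fell and 1 rose with metformin in GPD1 cells, and 10 fell and 1 rose in vector cells. The gene that rose was RRM2B, the p53-regulated small subunit that serves outside S phase, with log2 fold changes of 1.07 ± 0.08 SE, adjusted p = 3.84e-07, in GPD1 cells and 1.23 ± 0.08 SE, adjusted p = 1.09e-07, in vector cells (limma), the other way from RRM2. Of the whole list, 3 were higher and 5 lower in GPD1 cells with median-ratio factors, 6 and 4 of 12 with upper-quartile factors, and 1 and 11 without mitochondrial genes, against 1 and 9, 2 and 8, and 1 and 11 in vector cells. RRM2B stayed above 0 under all 3 other scalings, from 0.742 to 1.499. CAD, which begins pyrimidine synthesis, had log2 fold changes of -1.09 in GPD1 cells and -1.21 in vector cells. UMPS, which completes it, differed between backgrounds, with -1.61 in GPD1 cells and an interaction of -1.22 ± 0.15 SE, adjusted p = 8.25e-05 (limma). SAMHD1, which breaks down deoxynucleotides, had an interaction of the opposite sign (1.19 ± 0.09 SE, adjusted p = 4.11e-06; limma). Under metformin 7 of the 13 were higher and 1 lower in GPD1 cells, without metformin 0 higher and 1 lower, and 5 interactions lay above 0 and 1 below. At an unadjusted p under 0.05, 0 were higher and 3 lower without metformin. The list of other subunits outside the 49 held ORC4, MCM9, MCMBP, POLD4, POLE4, DBF4B and the RNase H2 genes RNASEH2A, RNASEH2B and RNASEH2C. Of its 8 tested genes, 4 fell and 2 rose with metformin in GPD1 cells and 5 fell and 1 rose in vector cells. POLD4, the small subunit of polymerase delta, rose in both, with log2 fold changes of 0.68 and 0.69, and DBF4B, a relative of DBF4, had -0.88 and -1.24. With median-ratio or upper-quartile factors alike, 4 were higher and 2 lower in GPD1 cells and 2 and 3 in vector cells, and without mitochondrial genes 1 and 6 in GPD1 cells and 1 and 7 in vector cells. Under metformin 5 of the 8 were higher and 1 lower in GPD1 cells, without it 0 were called in either direction (limma; 1 higher and 0 lower at an unadjusted p under 0.05), and 4 interactions lay above 0.

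Of 16 tested genes of S phase control, 13 fell and 1 rose with metformin in GPD1 cells, and 12 fell and 1 rose in vector cells. With either set of factors 3 were higher in each background, with 12 lower in GPD1 cells and 10 in vector cells. E2F8 and E2F2, members of the E2F family, had log2 fold changes of -2.15 and -1.95 in GPD1 cells and -2.44 and -1.67 in vector cells. E2F5, named after its values were seen, was the higher gene (0.45 and 0.51). E2F3, an activator of the family, had the lowest interaction (-0.92 ± 0.11 SE, adjusted p = 6.21e-05) and RB1, the retinoblastoma protein that restrains E2F, the highest (0.80 ± 0.07 SE, adjusted p = 7.61e-06; limma). Under metformin 6 of these were higher and 7 lower in GPD1 cells, where 25.0% and 35.0% of all genes were, without metformin 2 higher and 5 lower, where 9.99% and 11.3% were, and 6 interactions lay above 0 and 4 below.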

How the data were processed

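RNA-seq values of 12 A549 libraries were used, as 4 groups of 3 libraries assigned by their column labels. Per the labels' protocols, libraries of polyadenylated RNA came from the NEBNext Ultra kit. No strand is stated, so reads of genes that overlap on opposite strands could be mixed. The submitters' processing notes name CASAVA 1.8, HISAT2 2.1.0, edgeR without a version, and GRCh38/hg38. Which program made the values, and from which annotation, is not stated there. The deposited table is read as FPKM computed by the authors. Its header names no unit, and RPKM would look alike. Low values multiplied by merged exon length (GENCODE release 29) fell on whole multiples of 1 step (tolerance 0.02, up to 10 steps) for 64.5% to 69.3% of low genes in a library, which gave the depths.

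A gene was tested if its 12 values averaged 1 FPKM or more (12607 genes), as log2(FPKM + 1) with limma 3.58.1 in R 4.3.3, with an intensity trend and a model of 4 group means. Each of 5 comparisons was adjusted by Benjamini and Hochberg over all tested genes, with a threshold of 0.05. A plan for whole counts (edgeR) did not apply to these values. The test was also tested on simulated data. Alternatives were median-ratio or upper-quartile factors, totals without mitochondrial genes, no filter, a pseudocount of 0.1, only the groups compared, a replicate block, a threshold of 1 on the absolute log2 fold change, and the omission of each library. Protein-coding genes alone and removal of a transcript length trend (spline with 5 degrees of freedom) were added after seeing the data. The members, steps, lists and tests were chosen with earlier results of these data known.

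Values in every library are given, in each step, for the members with the largest called change in each direction of each comparison of groups, for the smallest interaction p, and for MCM2 to MCM7, PCNA and FEN1. From each further list and comparison the 3 genes with the smallest p could be named. Promoter windows and their sequences came from RefSeq.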

Additional observations from a re-analysis of the deposited data

Results flagged for a closer look

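The response to metformin differed between GPD1 and vector cells, by a test of the interaction itself (limma, adjusted p under 0.05), for 23 members. It was above 0 for 36.7% of the members, against 19.1% of all tested genes, and below 0 for 10.2%, against 26.8%. Being called was thus common among all genes, and the members differed from them in direction. The values are the log2 fold change with metformin in GPD1 cells minus that in vector cells. Among licensing genes it was -0.33 for ORC2 and 0.20 for ORC3. Among helicase genes it was 0.24 for MCM3, 0.50 for MCM4, 0.28 for MCM5, -0.55 for MCM8, 0.66 for MCM10, 0.38 for CDC45 and 0.42 for GINS2. Among polymerase genes it was 0.34 for POLA1, 0.59 for PRIM1, 0.50 for POLD1, 0.37 for POLD2 and -0.45 for POLE3. Among clamp and lagging strand genes it was 0.72 for PCNA, 0.38 for RFC1, 0.45 for RFC5, 0.48 for RPA1, 0.29 for RPA3, -1.18 for FEN1, -0.47 for LIG1 and 0.27 for DNA2. For RRM1 it was 0.21. FEN1, LIG1, MCM8 and POLE3 of the lower ones, and 13 of the 18 higher ones, were called under every alternative except the threshold on fold size.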

How the results depend on the processing

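Leaving out a library gave 48 lower members with metformin in GPD1 cells each time and 46 to 48 in vector cells. Scaling moved the count more, to 41 in GPD1 cells with median-ratio and 35 with upper-quartile factors, and to 45 in vector cells with either. With median-ratio factors the metformin difference turned to 0.0772 for RFC1 in GPD1 cells and 0.0882 for POLE3 in vector cells. With upper-quartile factors it turned in GPD1 cells to 0.0843 for ORC5, 0.078 for POLD2, 0.20 for RFC1, 0.0331 for RFC4 and 0.0544 for RRM1, and in vector cells to 0.10 for POLE3, and GPD1 over vector under metformin turned to 0.0488 for ORC2, 0.0102 for CDC6, 0.0208 for GINS1, 0.12 for POLE and 0.23 for RRM1. With totals without mitochondrial genes CDT1 turned to -0.0795 with metformin in GPD1 cells. The scalings differ in the total each library is divided by.

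Under metformin GPD1 cells were lower for 8 members with median-ratio and 6 with upper-quartile factors, and higher for 23 with upper-quartile factors. The metformin rise was called for 2 members in GPD1 cells with upper-quartile factors, and for 0 in GPD1 cells and 0 in vector cells without mitochondrial genes. The interaction was above 0 for 28 members with upper-quartile factors. Without metformin GPD1 cells were higher for 0 members without mitochondrial genes, 1 with a pseudocount of 0.1, 4 with only the groups compared and 1 with the replicate block. Of all genes, in that order, 8.57%, 9.43%, 10.3% and 9.14% were higher. A threshold of 1 on the absolute log2 fold change left 0 higher and 26 lower members with metformin in GPD1 cells, 0 and 31 in vector cells, 0 and 1 for GPD1 under metformin, 0 and 0 for GPD1 without metformin, and 0 and 1 for the interaction. Leaving out each library gave 0 to 2 higher and 9 to 14 lower members for GPD1 without metformin, 12 to 15 and 9 to 14 for GPD1 under metformin, and 14 to 22 above and 5 to 6 below 0 for the interaction. The shares of all genes in each omission are not given here. Where no cause is given here, the cause was not tested.

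Replicate numbers did not pair the samples: deviations of libraries with the same number correlated at -0.065 to 0.056, and those of other pairs at -0.099 to 0.072. With the replicate block, 48 members were lower with metformin in each background, 14 higher and 13 lower for GPD1 under metformin, 1 higher and 12 lower for GPD1 without metformin, and 17 above and 5 below 0 for the interaction. Of all genes, the block gave 47.7% lower with metformin in GPD1 cells and 42.9% in vector cells. For GPD1 it gave 24.6% higher and 34.4% lower under metformin, and 9.14% and 9.69% without it. For the interaction it gave 18.5% above and 26.3% below 0. At 1 read in 0.0556 to 0.0753 FPKM per kilobase, members averaging under 1 FPKM with metformin in both backgrounds (MCM10, GINS3, GINS4, POLE2 and DBF4) rest on few reads. The pseudocount of 1 understates their change. POLA1 averaged 0.902 FPKM in vector cells with metformin. FEN1 averaged 1.07 FPKM in GPD1 cells with metformin, and its log2 fold change there was -4.87 with a pseudocount of 0.1.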

Other observations

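CDT1 and GMNN, the licensing factor and its inhibitor, were compared as a ratio of FPKM in each library, a measure chosen after their values were seen. The ratio was 6.49, 5.94 and 9.40 in GPD1 cells with metformin, against 2.85, 2.22 and 2.40 in untreated GPD1 cells. It was 7.01, 6.3996 and 7.39 in vector cells with metformin, against 1.95, 2.88 and 2.43 in untreated vector cells. The ratio within a library does not depend on how the library is scaled. Its geometric mean was 2.88-fold higher with metformin in GPD1 cells and 2.90-fold higher in vector cells, without overlap in either. An exact permutation test on the log2 ratios, two-sided, gave p = 0.1 in each, which is the smallest that 3 against 3 libraries allow.

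The ranks of members by mean FPKM changed with metformin as well. CDT1 was, by mean FPKM, below only PCNA and POLE3 among the 49 genes with metformin, at 18.7 FPKM in GPD1 cells and 25.2 FPKM in vector cells. The lowest member was GINS3 at 0.400 FPKM in GPD1 cells with metformin, DBF4 at 1.24 FPKM in untreated GPD1 cells, POLE2 at 0.513 FPKM in vector cells with metformin and DBF4 at 1.24 FPKM in untreated vector cells. Within the GINS complex, whose subunits are present in equal numbers, the highest mean level was 8.17 times the lowest in GPD1 cells with metformin, against 8.40 times in untreated GPD1 cells, and 5.42 times in vector cells with metformin, against 8.998 times in untreated vector cells.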
